A study of Rattus norvegicus with 25 samples.

Results

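The genes described here encode the transcription factors that carry the rhythm of the circadian clock to other genes: the PAR bZIP activators Dbp, Tef and Hlf, the opposing bZIP repressor Nfil3 (also called E4BP4), and the repressors Bhlhe40 (Dec1) and Bhlhe41 (Dec2). They were taken from the table of all probe sets by gene symbol, every probe set annotated with exactly 1 of these names being used. No measured value entered the choice of probe sets, but the genes themselves were chosen with earlier results of these data known. Of the 6 genes, 5 had 1 probe set each among 29214 in the table: Dbp (probe set 10706953), Tef (10897997), Bhlhe40 (10857610), Bhlhe41 (10867026) and Nfil3 (10794225). Hlf matched no probe set in the annotation used here and was not analysed here.

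RNA was taken from the striatum of male Lister Hooded rats aged postnatal day (PND) 35 to 42, and 1 array was run per rat. In the Nic group (n = 7) the mothers drank a nicotine solution before and during pregnancy. In the Con-Pf group (n = 10) the mothers were pair-fed, with food limited to what the Nic mothers ate, and in the Con group (n = 8) the mothers had free food and water. The paper gives a light-dark cycle for the rats used for breeding. No source used here gives the lighting for the offspring or the time of day at which they were killed. Con-Pf 9 and 10 are titled Con-Pf but described as controls. Their title was followed. Calls in the comparisons with Con-Pf that are lost when both are counted as Con are given so too. A passage of the paper counts 10 Con and 8 Con-Pf arrays. The paper's own list, however, has the log2 differences given by the titles for Nr4a1 (1.44), Egr1 (0.55) and Bmal1 (0.51). With both arrays counted as Con these were 1.18, 0.43 and 0.43. In Con-Pf 9 and 10 the 7 activity-regulated genes described below averaged 10.03 and 10.06, against at most 9.32 in Con arrays. Values are log2 RMA values, that is background-corrected, quantile-normalised and summarised to 1 value per probe set, so that a difference of 1 is a doubling. In bulk tissue, fewer cells of a type and less RNA per cell cannot be told apart.

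In the mammalian clock, CLOCK and BMAL1 bind E-boxes and switch on the Per and Cry genes, whose products repress them, and also the Rev-erb genes (Nr1d1, Nr1d2), which repress Bmal1. Dbp, Tef and Hlf proteins activate genes through D-boxes, and NFIL3 competes for the same element as a repressor, so that the balance between them sets D-box activity over the day. DEC1 and DEC2 bind E-boxes and repress the genes that CLOCK and BMAL1 activate, their own genes included. In liver, Dbp is among the genes with the strongest daily rhythm, and Nfil3 is known to peak when Dbp is low.

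The promoters were searched for these elements, and the stretches that hold an E-box, the one element of these found in more than 1 of the genes, are shown. The RefSeq windows (rat build GRCr8, 250 bases before to 50 bases after an annotated start) were found for the 5 measured genes, whose genes lie at chr1:105312256-105317205 (Dbp), chr7:115197180-115221930 (Tef), chr4:143174450-143180150 (Bhlhe40), chr4:180565003-180569415 (Bhlhe41) and chr17:12432376-12447605 (Nfil3). The E-box CACGTG was present in 3 of the 5 windows, those of Tef, Bhlhe40 and Bhlhe41, and stands in capitals in the stretches below, each written 5′ to 3′ on the strand of its gene. The stretch of Bhlhe40 is chr4:143174200-143174275 (plus strand), that of Bhlhe41 chr4:180569358-180569443 (minus strand) and that of Tef chr7:115206589-115206674 (plus strand).
Bhlhe40: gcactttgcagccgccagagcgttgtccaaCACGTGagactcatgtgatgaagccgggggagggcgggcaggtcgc
Bhlhe41: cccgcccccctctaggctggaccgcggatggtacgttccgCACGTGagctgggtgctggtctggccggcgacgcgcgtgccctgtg
Tef: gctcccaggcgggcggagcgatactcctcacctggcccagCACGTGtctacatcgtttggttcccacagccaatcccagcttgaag
The E-box began at position -220 from the start in Bhlhe40, at -48 in Bhlhe41 and at -198 in Tef. Of all 33469 windows in the table, 6.42% held it on either strand. The E-box variant CACGTT (4.83% of windows), the D-box TTATGTAA (0.893%), its variant TTACGTAA (0.12%), the ROR element AGGTCA (16.2%) and the cyclic AMP response element TGACGTCA (1.83%) were found in none of the 5. The shorter TGACG, which lies within that element and occurs in 21.2% of windows, was found in Nfil3 at position -9. The windows of Tef and Bhlhe41 are set on a transcript start that lies inside the outermost ends of the gene. These matches describe letters in a short window and say nothing of binding in the striatum.

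All 5 measured genes passed the filter on low values, which kept the 14607 probe sets with a mean at or above the median. Dbp stood at percentile 97.58 of all probe-set means, Tef at 92.85, Bhlhe40 at 89.46, Bhlhe41 at 83.64 and Nfil3, nearest to the limit, at 56.41. The 10 measured markers of striatal projection neurons averaged 12.06 in Nic, 12.05 in Con-Pf and 12.05 in Con arrays, and none of them passed the test in any comparison. No other tissue was arrayed, so these levels compare the groups and do not check the origin of the tissue. Arrays correlated at 0.967 to 0.997 with each other, and Con 3 and Con 5 stood apart from the rest on the first principal component (30.45% of the variance). The paper's supplement reports an RNA sample with a low integrity score that was kept, and ascribes the score to likely technical issues. No label says which array, if any, came from that sample. Markers of oligodendrocytes, astrocytes, microglia and endothelial and mural cells (7, 7, 7 and 8 measured) did not pass the test in any comparison.

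The comparison of Con-Pf with Con asked whether restricted feeding of the mother changed striatal expression in the offspring. The clock output genes moved in opposite directions: Nfil3 was higher in Con-Pf, while Dbp, Tef, Bhlhe40 and Bhlhe41 were lower. All 5 passed the test across all probe sets (limma, adjusted p under 0.05), 1 of them higher and 4 lower. Of all probe sets, 1.26% passed in either direction, 1.00% higher and 0.260% lower. Because the genes were chosen with earlier results known, neither this count nor the later one of non-overlapping groups is blind. The changes were small, between a fold change of 0.781 for Dbp and one of 1.37 for Nfil3, and none reached the size of 0.5 on the log2 scale that the study's own rule asks for together with an unadjusted p under 0.01, a rule met by 0.199% of all probe sets.

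Dbp, the activator whose transcription most directly follows CLOCK and BMAL1, ran lowest 11.55, median 11.70 and highest 12.04 in Con-Pf arrays, against 11.85, 12.09 and 12.39 in Con arrays. Con-Pf 1 (12.01) and Con-Pf 8 (12.04) lay within the range of Con, and the other 8 Con-Pf arrays lay below every Con array. Dbp fell by 0.36 on the log2 scale (SE 0.073, 95% interval -0.51 to -0.21, limma adjusted p = 0.00905). Tef, the second PAR bZIP activator, ran 10.63, 10.75 and 10.85 in Con-Pf arrays, against 10.88, 10.96 and 11.06 in Con arrays. The groups did not overlap. Tef fell by 0.21 (SE 0.034, interval -0.28 to -0.14, limma adjusted p = 0.000683).

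Bhlhe40, the repressor that is also induced by neuronal and metabolic stimuli, ran 9.96, 10.17 and 10.32 in Con-Pf arrays, against 10.33, 10.55 and 10.65 in Con arrays. Every Con-Pf array was below every Con array, although by little between Con-Pf 10 and Con 5. Bhlhe40 fell by 0.34 (SE 0.054, interval -0.45 to -0.23, limma adjusted p = 0.000449). Bhlhe41, the closely related repressor known in people and mice for its role in sleep length, ran 9.45, 9.60 and 9.80 in Con-Pf arrays, against 9.65, 9.84 and 10.00 in Con arrays. Here the groups overlapped. Bhlhe41 fell by 0.22 (SE 0.049, interval -0.32 to -0.12, limma adjusted p = 0.0219), and this call was lost when Con 1 was left out (-0.20, adjusted p = 0.0624).

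Nfil3, the repressor of D-box genes, was the one gene of the group that was higher. It ran 7.51, 7.69 and 7.87 in Con-Pf arrays, against 7.00, 7.28 and 7.39 in Con arrays, and the groups did not overlap. Nfil3 rose by 0.45 (SE 0.058, interval 0.33 to 0.57, limma adjusted p = 2.56e-05), rank 16 by p-value among all probe sets kept. Tef, Bhlhe40 and Nfil3 were thus the 3 of 5 genes whose groups did not overlap, against 0.274% of all probe sets. Without Con 3 and Con 5 all 5 genes passed the test (Dbp adjusted p = 0.0431, Tef 0.00552, Bhlhe40 0.000565, Bhlhe41 0.00760 and Nfil3 0.000276). With Con-Pf 9 and 10 counted as Con, only Nfil3 and Bhlhe40 passed it, and Dbp (-0.28), Tef (-0.14) and Bhlhe41 (-0.16) did not. With the methods' t-test, which estimates the spread of each probe set alone, Dbp (adjusted p = 0.0984) and Bhlhe41 (0.149) did not pass either.

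**Figure D1:**
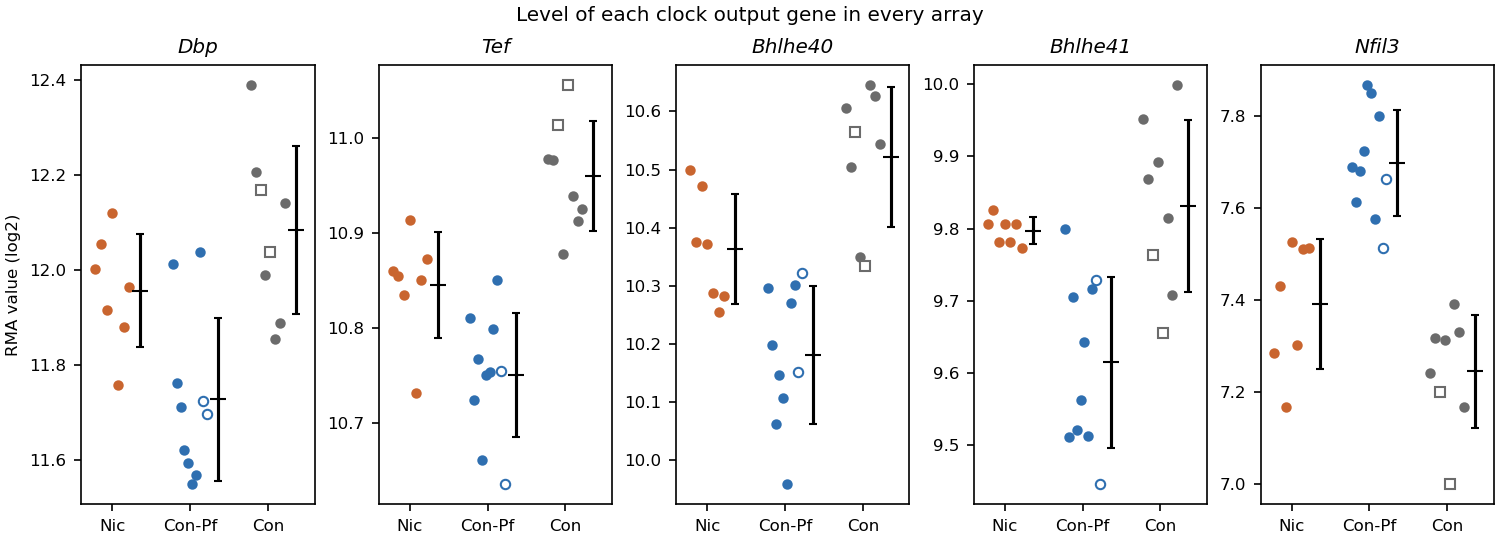
Log2 RMA value of each gene in every array (points), with the group mean and SD beside them, for Nic (n = 7), Con-Pf (n = 10) and Con (n = 8). Open circles are Con-Pf 9 and 10 and open squares Con 3 and Con 5. Con-Pf lies lowest for Dbp, Tef, Bhlhe40 and Bhlhe41 and highest for Nfil3, and the scale differs between panels.

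The comparison of Nic with Con-Pf, which share the reduced food intake of the mother, set nicotine exposure beside pair-feeding. It does not isolate nicotine. Nic mothers also drank less than Con-Pf mothers, and the paper names higher stress in pair-fed animals as a possible factor. These parts cannot be told apart here. Nfil3 ran 7.17, 7.43 and 7.53 in Nic arrays, against 7.51, 7.69 and 7.87 in Con-Pf arrays, so that the groups met only at the highest Nic value and the lowest Con-Pf value. Nfil3 fell by 0.31 in Nic (SE 0.061, interval -0.43 to -0.18, limma adjusted p = 0.0197) and was the 1 gene of 5 to pass the test, against 0.185% of all probe sets in either direction, 0.171% lower and 0.0137% higher. Leaving out any one of Nic 1, Nic 3 and Nic 5 ended this call (limma adjusted p = 0.0563 without Nic 1, 0.0731 without Nic 3 and 0.0707 without Nic 5). It was also lost with the methods' t-test (adjusted p = 0.197), the same test with pooled variance (0.106), no filter (0.0564), Con-Pf 9 and 10 counted as Con (0.163), and replicates 1 to 7 alone with the replicate number as a block (0.0624) or without it (0.0506), while the difference stayed between -0.33 and -0.29 in the 13 alternatives, other than leaving out 1 array, that kept the probe set. In the same comparison the 3 measured markers of cortical and thalamic neurons were higher in Nic, Slc17a7 by 1.18 (unadjusted p = 0.00423, limma adjusted p = 0.576), Cck by 0.53 (0.00467, adjusted 0.609) and Fezf2 by 0.13 (0.111, adjusted 0.999), and their part in the differences of the clock output genes was not tested.

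The other 4 genes had higher means in Nic than in Con-Pf, and none passed the test. Dbp averaged 11.96 ± 0.12 in Nic and 11.73 ± 0.17 in Con-Pf arrays (SD, n = 7 and 10), a difference of 0.23 (SE 0.076, limma adjusted p = 0.638). Tef averaged 10.85 ± 0.056 in Nic and 10.75 ± 0.065 in Con-Pf, a difference of 0.09 (limma adjusted p = 0.855). Bhlhe40 averaged 10.36 ± 0.095 in Nic and 10.18 ± 0.12 in Con-Pf, a difference of 0.18 (limma adjusted p = 0.482). In Bhlhe41 the difference was 0.18 as well (interval 0.08 to 0.29, limma adjusted p = 0.297), with 9.80 ± 0.019 in Nic and 9.61 ± 0.12 in Con-Pf. The 7 Nic arrays of Bhlhe41 lay between 9.77 and 9.83, a spread far below that of the other groups, whose difference was not tested.

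Between Nic and Con, the comparison that combines nicotine with reduced food intake, 0 of 5 genes passed the test and 0 of all probe sets did (0%). At an unadjusted p under 0.05, limma counted 2370 probe sets and the methods' t-test 1579, with 0 after adjustment by either. The differences were -0.13 for Dbp (limma adjusted p = 0.394), -0.11 for Tef (0.268), -0.16 for Bhlhe40 (0.268), -0.03 for Bhlhe41 (0.742) and 0.15 for Nfil3 (0.283). The Nic mean lay between those of Con-Pf and Con for all 5 genes. Both comparisons with Con-Pf use the same Con-Pf arrays, so that their opposite signs are not independent of each other.

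**Figure D2:**
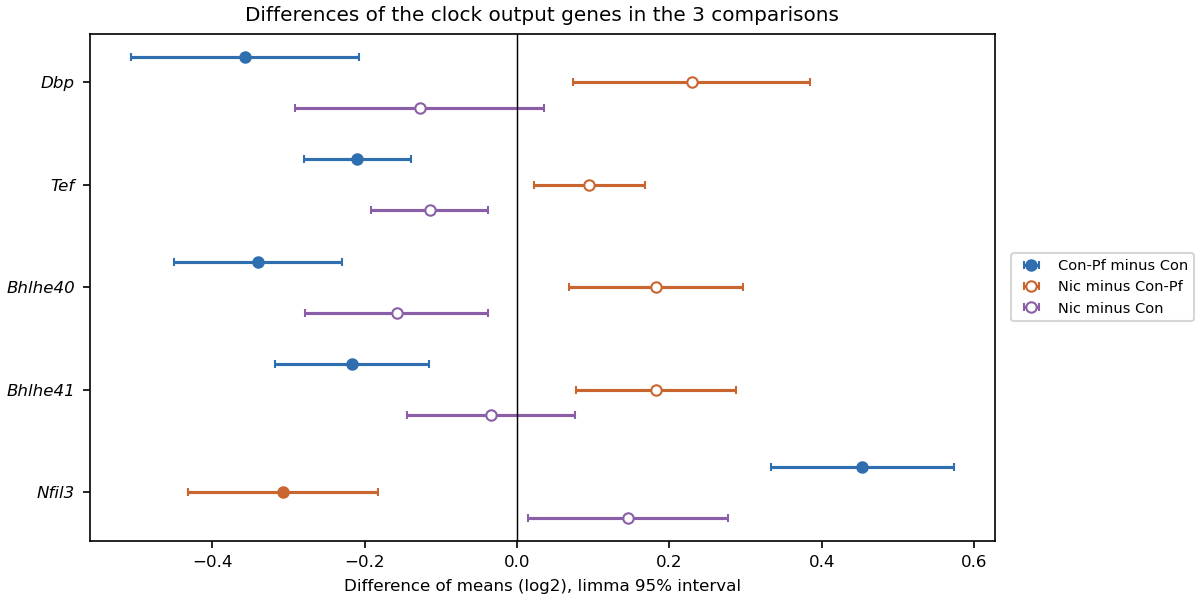
Difference of group means (log2) with the limma 95% interval for each gene in the 3 comparisons, filled where the adjusted p is under 0.05. All 5 genes are filled in Con-Pf minus Con, Nfil3 alone in Nic minus Con-Pf and none in Nic minus Con.

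Genes of both the activating and the repressing side of the core clock loop passed the test. Of 12 measured genes (from 19 listed symbols, older names included), 2 were higher and 3 lower in Con-Pf than in Con and 7 did not pass the test, with a median difference of -0.01, against 120 higher and 30 lower of all 8989 genes (median 0.02). Bmal1, the partner of CLOCK, rose by 0.51 (limma adjusted p = 5.46e-06) and Cry1, a repressor of the pair, by 0.24 (0.0191). The paper's own list of genes that met its rule holds the same Bmal1 probe set under the older name Arntl. Nr1d2 and Nr1d1, the Rev-erb repressors of Bmal1, fell by 0.33 (1.01e-06) and 0.23 (0.0364), and the period gene Per3 fell by 0.33 (3.63e-05). Per2 (-0.18, limma adjusted p = 0.0949), Per1 (0.22, 0.177), Csnk1d (0.06) and Csnk1e (0.03), which encode period proteins and the kinases that act on them, did not pass. Without Con 3 and Con 5, 1 gene was higher and 3 lower, Cry1 being lost (0.23, limma adjusted p = 0.0924). With Con-Pf 9 and 10 counted as Con, Bmal1 (0.43, limma adjusted p = 0.00910) and Nr1d2 (-0.27, 0.0127) passed, and Per3 (-0.26, 0.0572), Cry1 (0.23, 0.113) and Nr1d1 (-0.21, 0.198) did not. In Nic against Con-Pf, Nr1d2 rose by 0.24 (limma adjusted p = 0.00100) and Bmal1 fell by 0.30 (0.0334), and Nr1d1 (0.25, 0.0604) did not pass, against 1 higher and 23 lower of all 8989 genes. Nr1d1 passed there without Con 3 and Con 5 (limma adjusted p = 0.0158), with its difference unchanged at 0.25. Con arrays enter this comparison only through the estimate of spread shared by the 3 groups and the adjustment. With Con-Pf 9 and 10 counted as Con, 0 of the 12 passed there (Nr1d2 0.163, Bmal1 0.455).

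Among the other genes known as clock-controlled outputs, 6 of 13 measured passed the test in Con-Pf against Con, 2 higher and 4 lower, against 120 higher and 30 lower of all 8989 genes. Klf9, a Krüppel-like factor under both clock and glucocorticoid control, fell by 0.42 (limma adjusted p = 0.000890). Gpcpd1, a glycerophosphodiesterase, fell by 0.32, the cell-cycle kinase gene Wee1 by 0.23 and Tsc22d3, the glucocorticoid-induced leucine zipper, by 0.19. The cell-cycle inhibitor Cdkn1a rose by 0.34 and the Krüppel-like factor Klf10 by 0.25. Without Con 3 and Con 5 only Klf9, Gpcpd1 and Tsc22d3 passed, so that 0 were higher and 3 lower, and with Con-Pf 9 and 10 counted as Con 0 of the 13 passed (adjusted p = 0.188 for Klf9 and more for the others). The median of the 13 was -0.01. In Nic against Con-Pf 0 of 13 passed, against 1 higher and 23 lower of all 8989 genes, the nearest being Gpcpd1 (0.23, limma adjusted p = 0.0852, and 0.0337 without Con 3 and Con 5). The Gpcpd1 difference itself was the same without Con 3 and Con 5, which are not in this comparison.

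**Figure D3:**
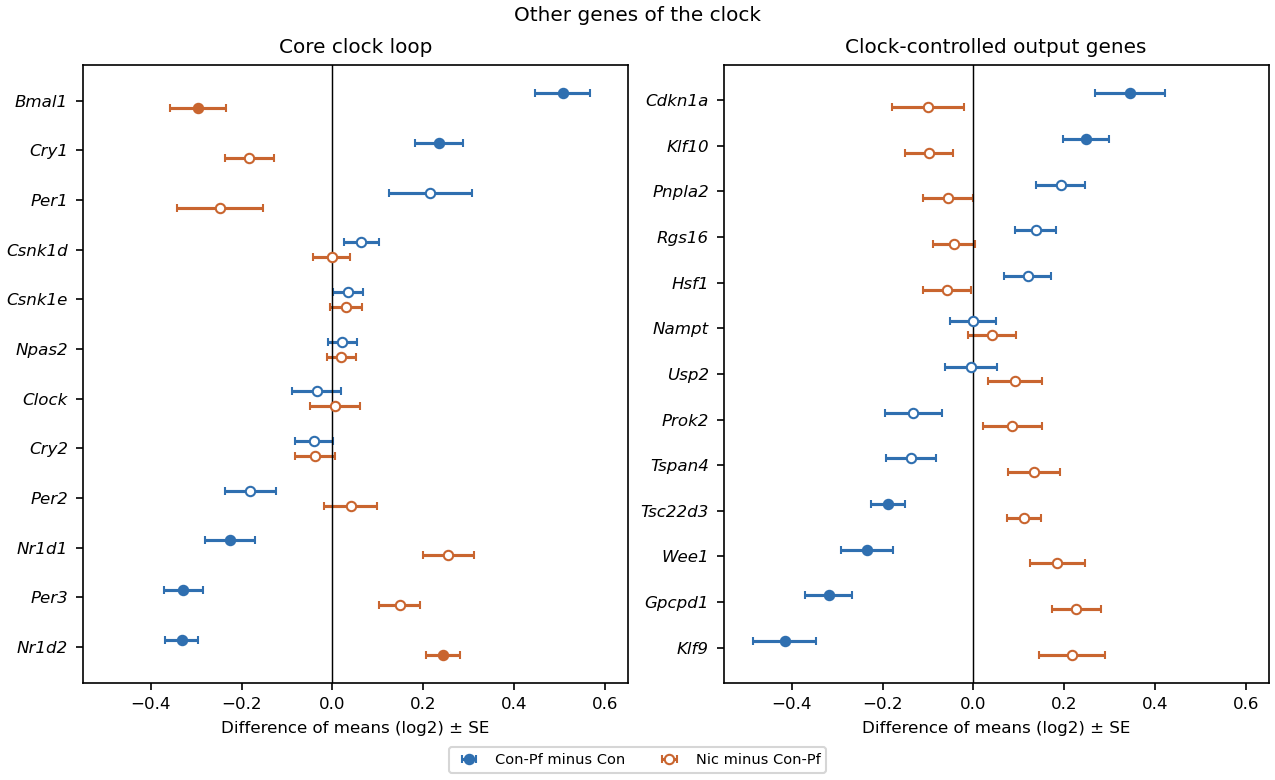
Difference of group means (log2) with its SE for 12 core clock genes and 13 clock-controlled genes, in Con-Pf minus Con and in Nic minus Con-Pf, filled where the adjusted p is under 0.05. Bmal1 and Nr1d2 are filled in both comparisons, with opposite signs.

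Genes known mainly from liver and kidney as targets of the PAR bZIP factors were counted in the same way. Of 8 measured of 13 listed, 0 were called in any comparison, against 120 higher and 30 lower of all 8989 genes in Con-Pf against Con, 1 and 23 in Nic against Con-Pf and 0 in Nic against Con, shares near which a count of 0 is no result about so short a list. The median of the 8 was -0.03 in Con-Pf against Con. Abcb1a, a drug efflux pump, differed by -0.24 (limma adjusted p = 0.121), Ppara by -0.12 (0.264) and Pdxk, the pyridoxal kinase through which these factors are linked to epilepsy in mice, by 0.02 (0.821), the last named for this role after its value was seen. Per1 and Per2, given above, are also on this list. In the families closest in kind to these factors, 0 of 4 C/EBP genes, which are also bZIP factors, and 0 of 6 HES and HEY genes, the E-box-type repressors related to DEC1 and DEC2, passed in any comparison, and the same shares apply to these short lists. The nearest were Ddit3 (0.18, limma adjusted p = 0.127) and Hey2 (0.29, 0.0852).

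Neuronal activity and glucocorticoids are known to act on clock genes, and genes that respond to them were counted alongside. All 7 activity-regulated genes measured were higher in Con-Pf than in Con, by 0.55 (Egr1) to 1.44 (Nr4a1), and 6 of the 7 were lower in Nic than in Con-Pf, Nr4a3 not passing (-0.76, limma adjusted p = 0.0852), against the shares of all genes given above. Without Con 3 and Con 5 these counts were again 7 and 6, and with Con-Pf 9 and 10 counted as Con they were 6 and 3. All of these activity-regulated genes are on the paper's own list of genes differing between Con and Con-Pf, made from the same arrays. Their counts were therefore largely fixed beforehand and are no independent result beside the shares of all genes. Of 13 glucocorticoid-induced genes, 3 of which are also on the list of clock outputs, Cdkn1a was higher and Klf9 and Tsc22d3 lower in Con-Pf than in Con and Fkbp5 did not pass (-0.21, limma adjusted p = 0.0658), again beside 120 higher and 30 lower of all 8989 genes. Cdkn1a was lost without Con 3 and Con 5 (adjusted p = 0.127), and all 3 were lost with Con-Pf 9 and 10 counted as Con. The mean level of 3 measured markers of cortical and thalamic neurons (of 11 listed) ranged over 7.29 to 9.11 in Nic, 7.25 to 7.77 in Con-Pf and 7.36 to 8.49 in Con arrays, and none of the 3 passed the test. For 2 measured choroid plexus markers (of 7 listed) these ranges were 6.88 to 9.48 in Nic, 7.04 to 11.8 in Con-Pf and 6.93 to 11.3 in Con arrays, with 0 passing. The part of activity, of hormones or of neighbouring tissue in the differences of the clock output genes was not tested.

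Among animals of the same group, the genes were set against each other as deviations from their group means over 25 arrays. Of 25 relations, 10 between the genes and 15 with Bmal1, Per3 and Fos, 0 passed after adjustment and 4 had an unadjusted p under 0.05 (permutation within groups). Dbp varied with Tef at r = 0.53 and rho = 0.59 (permutation p = 0.00956 and 0.00397, adjusted 0.0797 and 0.0992), and r was 0.47 without the 2 arrays farthest from the median of Dbp. Dbp varied with Bhlhe41 at r = 0.54 and rho = 0.53 (permutation p = 0.0149 and 0.0122, adjusted 0.0929 and 0.132), and r was 0.44 without those arrays.

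Against Bmal1, which acts upstream of it, Dbp gave r = -0.54 and rho = -0.48 (permutation p = 0.00908 and 0.0222, adjusted 0.0797 and 0.139), and r was -0.50 without the same 2 arrays. Within groups this r was -0.52 in Nic, -0.64 in Con-Pf and -0.44 in Con. Tef gave r = 0.53 and rho = 0.49 with Per3 (permutation p = 0.00523 and 0.0158, adjusted 0.0797 and 0.132), with r = 0.42 without the 2 arrays farthest from the median of Tef. Dbp and Nfil3, which act on the same element in opposite ways, gave r = -0.02 (permutation p = 0.917). Within groups that r was 0.40 in Nic, -0.02 in Con-Pf and -0.30 in Con. Some other relations also changed sign between groups, such as Bhlhe40 with Bmal1 (-0.36 in Nic, -0.78 in Con-Pf and 0.73 in Con).

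**Figure D4:**
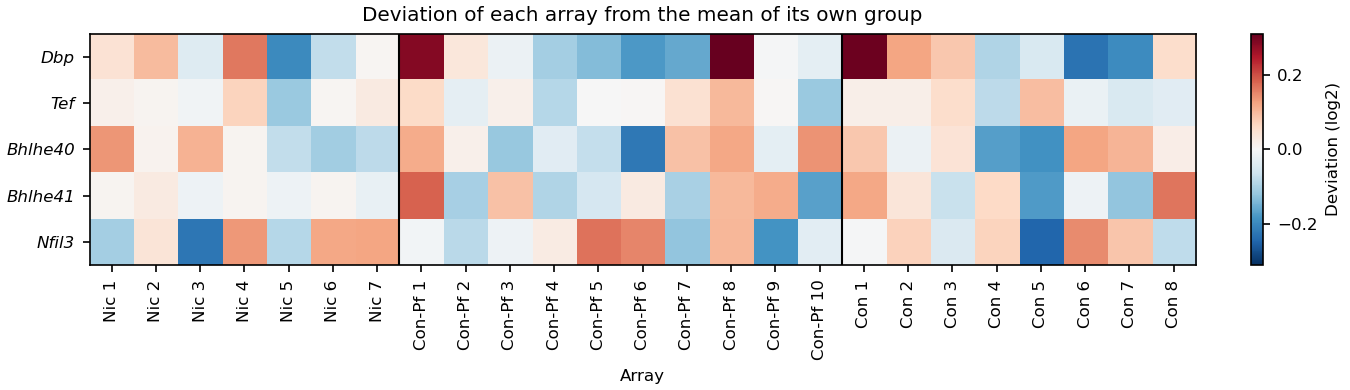
Deviation of each array (columns, grouped as Nic, Con-Pf and Con) from the mean of its own group on the log2 scale, for the 5 genes (rows). Con-Pf 1, Con-Pf 8 and Con 1 have the highest Dbp deviations, and Con 5 has the lowest for Nfil3.

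The genes whose deviations most resembled those of each gene were listed over 25 arrays and 8988 other genes, as a description. For Dbp these were Slc3a2 (r = 0.861), Ciapin1 (0.858) and Ostm1 (0.840), with Syf2 and Znf57l at the other end (-0.832 each). For Tef they were Ptpn9 (0.844), Cryz (0.825) and Eps15 (0.821), with Fahd2a (-0.797) and Ppie (-0.801) opposite. For Bhlhe40 they were Prr5 (0.776), Bag3 (0.75) and Sbds (0.727), with Rps6kc1 (-0.662) and Rgs7 (-0.689) opposite, and for Bhlhe41 Vdac2 (0.778), S100b (0.759) and Kcnip4 (0.753), with Sardh (-0.728) and Ppp6r2 (-0.763) opposite. None of these genes is on the clock lists used here, while S100b is among the astrocyte markers. For Nfil3 the values were lower and rested in part on 2 arrays: Fcgrt (0.657), Zfp36 (0.641) and Tgoln2 (0.639) came to 0.547, 0.515 and 0.510 without Con 3 and Con 5, and Notch1 (-0.569) and Ankrd6 (-0.593) to -0.371 and -0.453. The points of each correlation share the same arrays and the same normalisation.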

How the data were processed

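Striatal RNA of 25 male rats, 1 per array, was hybridised to Affymetrix rat GeneChip 1.0st arrays (7 Nic, 10 Con-Pf and 8 Con, grouped by title). The authors deposited log2 values made with RMA (RMA and Affymetrix Expression Console 1.1 in the submitters' processing notes), after removing 2 Con and 1 Nic array. Arrays give no read depth, so their number limits the precision. Litters are not given for the arrayed animals, some of which may be littermates. The paper lists fewer Con-Pf mothers than the 10 Con-Pf animals, so that some of these share a mother. The tests treat each animal as independent, and p-values measure the spread between these animals, not between litters.

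The filter kept 14607 probe sets, those whose mean reached the median of all (quantile 0.5), and 9606 of them carry 1 symbol. Of all probe sets 15310 carry 1 symbol, 323 several and 13581 none. For lists the probe set with the highest mean stood for a gene. Group differences came from limma 3.58.1 (R 4.3.3), fitted as 1 linear model to all 3 groups, with moderated variances and Benjamini-Hochberg adjustment over all probe sets kept (two-sided, threshold 0.05). The methods' t-test has unequal variances. Relations used deviations from group means and 100000 two-sided permutations within groups, adjusted over 25 relations. Steps were tested on simulated data. Promoter windows and coordinates are those of RefSeq (GRCr8). Python 3.11.15 with matplotlib 3.10.9 made the plots.

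Genes named are the members, the called genes of each list with up to 4 further genes of smallest p, and for each member the 3 genes with the highest and the 2 with the lowest correlation. Members and lists were chosen with earlier results of these data known. The alternatives, 14 and the leaving out of each of 25 arrays in turn, are given with the closing observations. Counts of called genes in the lists under other treatments of Con 3, Con 5, Con-Pf 9 and Con-Pf 10, and the split of calls under other scalings, were chosen after seeing the data.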

Additional observations from a re-analysis of the deposited data

How the results depend on the processing

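Over 14 alternatives the differences of the 5 genes gave 207 values, of which 187 kept their direction and their side of the threshold, 17 lost the call, 2 gained it and 1 turned. Leaving out each of 25 arrays gave 375 values, of which 371 were unchanged in this sense and 4 lost the call, while Dbp, Tef, Bhlhe40 and Nfil3 were called in Con-Pf against Con in all 25. The number of the 5 genes called in Con-Pf against Con was 5, and 3 with the methods' t-test and with a pooled t-test (Dbp and Bhlhe41 lost, with adjusted p = 0.0984 and 0.149, and 0.0688 and 0.108), and 2 with Con-Pf 9 and 10 counted as Con. In Nic against Con-Pf it was 1, and 0 with either t-test (Nfil3 adjusted p = 0.197 and 0.106), with no filter (0.0564), with a filter at quantile 0.75, which leaves Nfil3 out by its construction, and with Con-Pf 9 and 10 counted as Con (0.163), but 3 with array weights, which added Bhlhe40 (0.21, limma adjusted p = 0.0390) and Bhlhe41 (0.18, 0.0396). Leaving out 1 array gave 0 to 1 there. Bhlhe41 in Con-Pf against Con also lost its call with limma on the compared groups alone (0.0836) and with no filter (0.0634), and its difference in Nic against Con turned to 0.014 with Con-Pf 9 and 10 counted as Con. The cause of these differences was not tested. Deviations of same-numbered arrays gave r = -0.362 to 0.341 (22 pairs, median 0.041, 10 over 0.1, 5 of 21 arrays closest to their own number), and the numbers were not taken as pairs. With the replicate number as a block over replicates 1 to 7, 4 genes were called in Con-Pf against Con (Bhlhe41 -0.20, adjusted p = 0.0502) and 0 in Nic against Con-Pf (Nfil3 -0.32, 0.0624), as with the same arrays unpaired (4 and 0), and the SE of Dbp in Con-Pf against Con was 0.058 with the block and 0.081 unpaired. Groups were balanced over days of extraction, but no label links arrays to days, and a day effect was not tested. Over all probe sets, 184 were called in Con-Pf against Con, and 66 with the methods' t-test, 84 with a pooled t-test, 99 with limma on the compared groups, 96 with no filter, 116 and 27 with Con-Pf 9 and 10 left out and counted as Con, 85 without Con 3 and Con 5, and 104 to 480 with 1 array left out. That number was 104 when the array omitted was Con 3, 108 for Con 5, 114 for Con 1, 116 for Con-Pf 2, 285 for Con 4, 295 for Con 8, 344 for Con 6 and 480 for Con 7. In Nic against Con-Pf, 27 were called, and 6, 8 and 55 with the methods' t-test, a pooled t-test and array weights, 14 with the stricter filter, 5 with Con-Pf 9 and 10 as Con, 14 with the replicate block and 17 with those arrays unpaired. Of the calls in Con-Pf against Con, 146 were higher and 38 lower, but 119 and 60 after a further quantile normalisation. Of the 13 clock-controlled genes, 3 in place of 6 were called in Con-Pf against Con without Con 3 and Con 5, and 0 with Con-Pf 9 and 10 counted as Con, where the core clock loop gave 2 in place of 5.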
